A study of Mus musculus with 2 samples.

Results

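The genes of the ribosome were compared between brain mononuclear cells of CD47 KO mice and of WT mice. A gene was taken in when a probe set of the array was annotated with exactly 1 gene symbol, and that symbol was Rpl or Rps with a number (cytosolic ribosome) or Mrpl or Mrps with a number (mitochondrial ribosome). This gave 122 of the 18193 genes named on the array, of which 46 were cytosolic and 76 were mitochondrial. The rule used names alone and no measured value. The CD47 KO sample was RNA pooled from 6 male mice of 12 to 16 weeks with a global loss of CD47, and the WT sample was RNA pooled from 7 male mice of 10 to 15 weeks. Whole brains were digested with collagenase, and the cells that settled between 70% and 37% Percoll were collected, so the samples were enriched mononuclear cells and not sorted microglia. From each pool, 20 ng of total RNA was amplified and hybridised to 1 Affymetrix Mouse Genome array, where sets of short probes (probe sets) each give 1 signal and a gene can have several. Genotype, pool, age range and array cannot be told apart in this design.

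Ribosomes translate mRNA into protein and are built from a small and a large subunit, each made of ribosomal RNA and proteins. In the cytosol these are the 40S subunit, with the Rps proteins, and the 60S subunit, with the Rpl proteins. Their mRNAs are among the most abundant of any cell, and many begin with a C followed by a run of pyrimidines, the terminal oligopyrimidine (TOP) motif, through which mTORC1 signalling sets their translation. Mitochondria have a ribosome of their own, which makes a few subunits of the respiratory chain. Its proteins (Mrps in the small and Mrpl in the large subunit) are encoded in the nucleus, made in the cytosol and imported.

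With 1 array per genotype there was no replicate and no test, so no value below has a replicate error. Each comparison is a description of these 2 pools. Every value is the MAS5 signal of 1 probe set, and every Log2 ratio is CD47 KO over WT. Where a gene had several probe sets, the one with the highest mean of both signals stood for it. A gene was called expressed when its signal was at or above the array median, 146 in CD47 KO or 161 in WT, in at least 1 of both samples. Because probe sets bind with different strength, brightness describes how strongly a probe set was read and does not rank genes by mRNA level. In pooled RNA, fewer cells of a type and less RNA per cell cannot be told apart.

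*Cd47* itself was low on the CD47 KO array. Its brightest probe set read 1688 in CD47 KO and 5816 in WT cells, and its 5 expressed probe sets had Log2 ratios of -1.86 to -1.45. All 13 microglial markers with a named probe set were expressed and had higher signals in CD47 KO cells, with a median Log2 ratio of 0.25 and a summed signal of 115918 in CD47 KO and 98859 in WT cells. Over all expressed genes 50.3% were higher. Among genes outside both ribosomes with a mean signal of at least 5000, it was 71.6% (median 0.07). The 7 expressed astrocyte markers were also higher (median 0.31). Of 8 fibroblast markers, 7 had lower signals in CD47 KO cells (median -0.82, summed signal 4356 in CD47 KO and 6679 in WT). The 4 expressed pituitary markers were all lower (median -2.86). Over all 5 named pituitary markers, expressed or not, the summed signal was 2410 in CD47 KO and 12388 in WT. The part of this cell mixture in the ribosomal values was not tested.

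The mRNAs of the cytosolic ribosome were read at high signal in both genotypes. Of the 46 genes, 43 were expressed, and 34 lay in the top 5% of all probe sets on both arrays. The median signal over the 43 was 13551 in CD47 KO and 12444 in WT cells. *Rpl3l*, known for its expression in heart and skeletal muscle, was below the threshold with 8.10 in CD47 KO and 44.8 in WT. *Rpl37* (77.9 in CD47 KO and 91.1 in WT) and *Rps16* (1.11 in CD47 KO and 1.18 in WT) were below it as well, although both encode proteins that every ribosome holds, and each had 1 probe set of its own.

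The mRNAs of the mitochondrial ribosome were also nearly all read. Of the 76 genes, 75 were expressed, and 57 were in the top 25% of both arrays. Their median signal was 1218 in CD47 KO and 1291 in WT cells. *Mrpl45*, which anchors the mitochondrial ribosome to the inner membrane, was below the threshold at 46.8 in CD47 KO and 108 in WT. RefSeq (GRCm38.p6) held all 122 genes, 121 as protein coding genes and *Rps4l* as a transcribed pseudogene.

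Cytosolic ribosomal protein genes lay together just above equal signal. The median Log2 ratio of the 43 expressed genes was 0.11, with the middle part of the distribution (25th to 75th percentile) between 0.06 and 0.14. In CD47 KO cells 37 of them were higher and 6 were lower, which is 86.0% higher. Over all 11682 expressed genes the median was 0.00 and 50.3% were higher. The 40S and the 60S genes had near equal medians, 0.10 over 21 genes and 0.11 over 22 genes, with 17 and 20 genes higher. This shift depended on how the 2 arrays were scaled to each other. Under quantile normalization the cytosolic median was 0.03 with 29 of 43 genes higher, and under loess it was 0.02 with 28 of 43 higher.

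**Figure D1:**
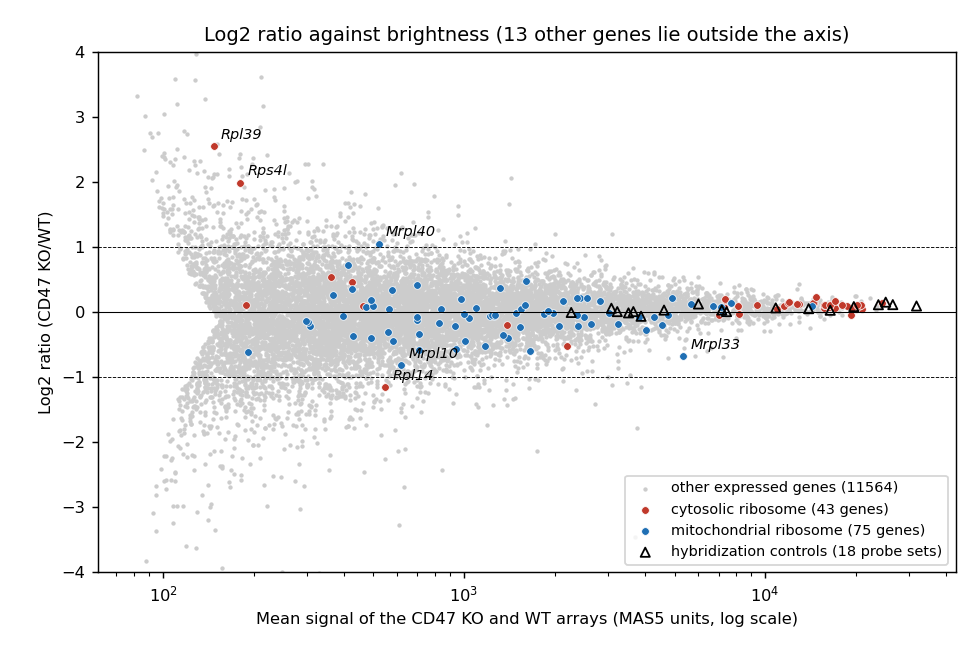
Each point is 1 expressed gene, with the mean MAS5 signal of both arrays on a log axis and the Log2 ratio (CD47 KO/WT) on the y axis; dashed lines mark 2-fold, and triangles are hybridization control probe sets. The cytosolic genes (red) lie in a narrow band at the bright end beside the controls, the mitochondrial genes (blue) spread around 0 at lower signals, and the labelled genes are those past 2-fold together with *Mrpl10* and *Mrpl33*.

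Other bright signals were shifted by a similar amount. Among genes with a mean signal of at least 5000, 34 cytosolic genes had a median of 0.11 (SD over genes 0.06, range -0.05 to 0.22, 31 higher). The 673 other bright genes had a median of 0.07 (SD 0.15), and 71.6% of them were higher. The 11 hybridization control probe sets in the same class, which read bacterial and phage transcripts added to each sample, had a median of 0.08 and a range of 0.01 to 0.15. The 3 probe sets for 18S ribosomal RNA had Log2 ratios of 0.05 to 0.10, and those for beta-actin 0.07 to 0.15. The band of the cytosolic genes therefore overlapped that of the added controls.

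The cytosolic genes were also alike when read more than once. For 21 of them at least 2 probe sets were expressed, and bright probe sets of the same gene differed with an SD of 0.045 (48 probe sets of 17 genes). *Rps28* was read by 3 probe sets at 0.09 to 0.11, *Rpl27* by 3 at 0.13 to 0.15 and *Rps10* by 5 at 0.06 to 0.13. With dimmer probe sets included, the SD within a gene was 0.24, and in 14 of 21 genes all had the same sign. For *Rpl37a*, a dim probe set read 199 in CD47 KO and 431 in WT (-1.12), against 0.08 and 0.11 on its bright ones. Of all 65 bright cytosolic probe sets, 60 were higher in CD47 KO cells and 0 were past 2-fold.

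The brightest cytosolic genes give the pattern in single values. *Rps29*, a small zinc-binding protein of the 40S head, read 25588 in CD47 KO and 23318 in WT cells (Log2 ratio 0.13). *Rps20* read 21621 in CD47 KO and 20149 in WT (0.10), and *Rpl22*, an RNA-binding protein of the 60S subunit, read 21161 in CD47 KO and 19838 in WT (0.09). *Rpl38*, known for its part in the translation of Hox mRNAs in the mouse embryo, read 21361 in CD47 KO and 20583 in WT (0.05). All 4 were higher in CD47 KO cells by less than the spread of other bright genes.

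Within the bright band, the highest ratios belonged to *Rps3a1*, with 15918 in CD47 KO and 13636 in WT (0.22), and *Rpl7a*, with 7850 in CD47 KO and 6834 in WT (0.20). *Rpl4* followed with 7820 in CD47 KO and 6852 in WT (0.19). At the low end were *Rps24*, with 18983 in CD47 KO and 19672 in WT (-0.05), *Rps27l* (6910 in CD47 KO and 7117 in WT, -0.04) and *Rpl22l1* (8082 in CD47 KO and 8236 in WT, -0.03). These 3 were the only bright cytosolic genes that were not higher. The order of *Rps24* rests on the choice of probe set, since its 5 expressed probe sets lay between -0.05 and 0.21, whereas the 3 of *Rps27l* all lay between -0.04 and -0.01.

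**Figure D2:**
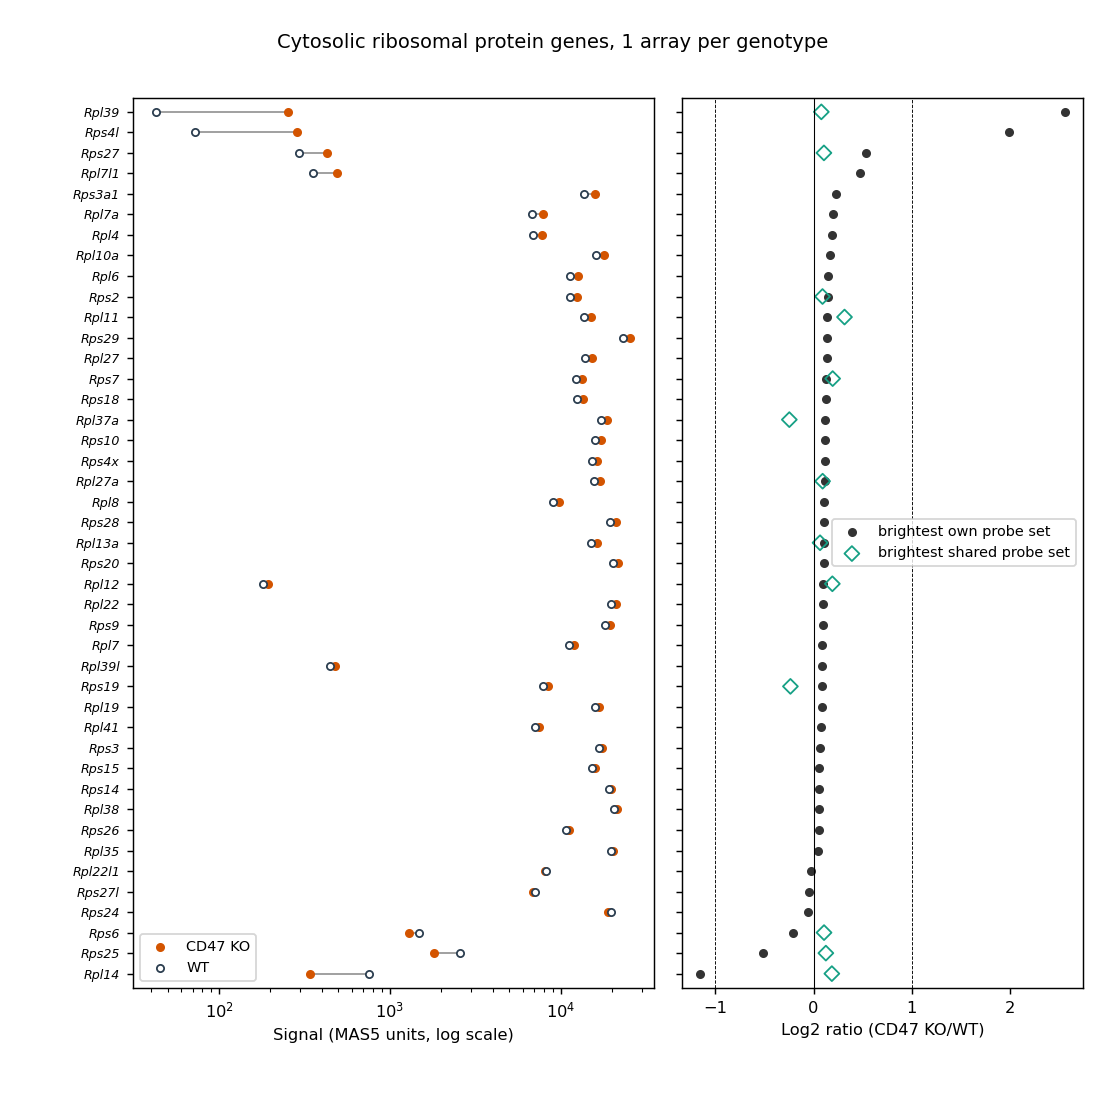
The left panel gives the MAS5 signal (log axis) of the 43 expressed cytosolic ribosomal protein genes in CD47 KO (filled) and WT cells (open), ordered by Log2 ratio; the right panel gives the Log2 ratio of the brightest probe set of the gene's own (points) and of the brightest probe set that lists the gene with others (diamonds), with dashed lines at 2-fold. Of the genes far from the common band, *Rpl39*, *Rps27*, *Rps6*, *Rps25* and *Rpl14* have their brightest shared probe sets at 0.08 to 0.19, and *Rps4l* and *Rpl7l1* have none.

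Past 2-fold there were 3 cytosolic genes, 2 higher and 1 lower, and 1 mitochondrial gene, which was higher. This is 6.98% of the cytosolic and 1.33% of the mitochondrial genes, against 8.94% of all expressed genes (3.53% higher and 5.41% lower). All 4 had mean signals under 1000. In that class 3 of 7 cytosolic genes (42.9%), 1 of 30 mitochondrial genes (3.33%) and 13.2% of the other expressed genes were past 2-fold. Both higher cytosolic genes passed the threshold through the CD47 KO signal alone, and with the threshold required on both arrays 1 of 41 cytosolic genes, *Rpl14*, was past 2-fold.

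*Rpl39*, on chromosome X, encodes a very small protein that lines the tunnel through which the growing chain leaves the 60S subunit. Its own probe set read 252 in CD47 KO and 43.0 in WT cells (Log2 ratio 2.55), so that only the CD47 KO signal passed the threshold. A probe set that lists *Rpl39* together with other symbols read 24931 in CD47 KO and 23599 in WT (0.08). *Rpl14*, a 60S protein, was the reverse case. Its own probe set read 340 in CD47 KO and 757 in WT (-1.15), and the brightest probe set it shares read 10977 in CD47 KO and 9648 in WT (0.19). For both genes the dim and the bright reading disagreed in size, and for *Rpl14* in sign. A shared probe set is not a value of the gene alone.

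*Rps4l*, the pseudogene related to *Rps4x*, read 288 in CD47 KO and 72.5 in WT cells (1.99), so that its WT signal was below the threshold as well. No shared probe set listed it, so it had no second reading. *Rps4x*, its protein-coding relative on chromosome X, read 16403 in CD47 KO and 15163 in WT (0.11), within the common band.

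The remaining genes outside the band were again those with weaker probe sets of their own. *Rps27*, a zinc-finger protein of the 40S subunit, read 426 in CD47 KO and 294 in WT (0.53), and its brightest shared probe set 22018 in CD47 KO and 20463 in WT (0.11). *Rps25*, which several viruses need for initiation of translation at internal ribosome entry sites, read 1808 in CD47 KO and 2584 in WT (-0.52), with 16136 in CD47 KO and 14795 in WT (0.13) on the shared probe set. *Rps6*, the 40S protein that S6 kinases phosphorylate, read 1292 in CD47 KO and 1490 in WT (-0.21). A dimmer *Rps6* probe set had 150 in CD47 KO and 60.3 in WT (1.31), and the brightest shared one 18663 in CD47 KO and 17332 in WT (0.11). The other bright probe sets that *Rps6* shares had ratios of 0.09 to 0.16, and its dimmer expressed shared ones -0.14 to 0.56. For each of these 3 genes the bright reading lay in the common band.

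Probe sets that list several symbols were left out of the gene values. There were 109 with at least 1 cytosolic ribosomal protein among their symbols, and 27 symbols occurred only on such probe sets. The 79 bright ones had a median Log2 ratio of 0.12 (SD 0.05), and 79 of 79 were higher in CD47 KO cells. Among them, the brightest for *Rpl37* (21658 in CD47 KO and 20957 in WT) and *Rps16* (16959 in CD47 KO and 16018 in WT) had ratios of 0.05 and 0.08, although the genes' own probe sets were below the threshold. A further bright one had a ratio of 0.20 for *Rpl37* and of 0.10 for *Rps16*. When shared probe sets were let in, an alternative chosen after seeing the data, 72 cytosolic genes had a median of 0.11, and *Rps4l* alone was past 2-fold.

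Grouped by role, the cytosolic genes had medians close to that of the whole set. *Rpl11*, which binds the 5S RNA and, when set free, the p53 regulator Mdm2, read 15150 in CD47 KO and 13757 in WT (0.14). The 3 named proteins of the stalk, the arm that recruits elongation factors, had a median of 0.12. They were *Rplp2* (17822 in CD47 KO and 15482 in WT, 0.20), *Rplp0* (14503 in CD47 KO and 13308 in WT, 0.12) and *Rpl12*, which was dim with 195 in CD47 KO and 182 in WT (0.10). Bright probe sets that *Rpl12* shares read 10995 in CD47 KO and 9630 in WT (0.19), and 9669 in CD47 KO and 7821 in WT (0.31). Cytosolic ribosomal proteins under other names, which the naming rule left out, were *Rplp0*, *Rplp2*, *Fau* (14692 in CD47 KO and 13952 in WT, 0.07) and *Rpsa* (15111 in CD47 KO and 14608 in WT, 0.05), and all 4 were higher (median 0.10). Of 8 proteins around the exit of the peptide tunnel, 4 were expressed with a probe set of their own, all 4 higher (median 0.09), *Rpl39* among them. Of the genes mutated in human Diamond-Blackfan anaemia, an inherited failure of red cell production, 11 of 19 were expressed with a probe set of their own, and 10 of the 11 were higher (median 0.11). *Rps19*, the most often mutated of them, read 8391 in CD47 KO and 7897 in WT (0.09).

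Some paralogs can replace a core protein in the ribosome. The paralogs counted here were listed by name and include the pseudogene *Rps4l*, and replacement was not tested. Of 5 expressed paralogs 3 were higher and 2 lower (median 0.09), and of the 5 expressed parent genes all 5 were higher (median 0.11). *Rpl7l1* read 491 in CD47 KO and 355 in WT (0.47), with its 3 probe sets between 0.12 and 0.81, while its parent *Rpl7* read 11917 in CD47 KO and 11207 in WT (0.09). *Rpl39l*, known from the testis, read 477 in CD47 KO and 449 in WT (0.09). *Rps27l* and *Rpl22l1*, given above, were at or just below equal signal while *Rpl22* was at 0.09. The wide values were again those of dim probe sets.

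Runs of pyrimidines at or near the annotated start, which the rule did not use, were counted by promoter, and a gene can have several promoters. RefSeq promoters of GRCm38.p6, which span 250 bases before to 50 bases after the annotated start, were held for 40 of the cytosolic and 67 of the mitochondrial genes. A C followed by at least 4 pyrimidines began within 5 bases of the annotated start in 20 of 48 cytosolic promoters (41.7%), in 17 of 73 mitochondrial promoters (23.3%) and in 18.3% of all 32851 promoters. With such a C at the annotated start itself, which includes starts inside a longer run, the counts were 7 of 48 (14.6%), 0 of 73 and 2.51%. Annotated starts can be a few bases off, and a run is not proof of a TOP mRNA. Below are 30 bases of 10 genes, from 10 bases before the annotated start, 5′ to 3′. Capitals mark the pyrimidines from the first such C within 5 bases of the start. In *Rpl38*, *Rpl35* and *Rpl14*, pyrimidines in lower case stand directly before the capitals, so the whole run begins earlier. *Rpl38*, *Rpl27a*, *Rpl35* and *Rps18* are shown for long runs in genes of the common band, and *Rps6*, *Rps27*, *Rpl14*, *Rpl39*, *Rps25* and *Rpl7l1* because their own probe sets lay outside it.
Rpl38: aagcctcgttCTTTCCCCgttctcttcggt
Rpl27a: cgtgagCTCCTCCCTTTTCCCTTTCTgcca
Rpl35: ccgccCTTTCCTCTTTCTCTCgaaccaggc
Rps18: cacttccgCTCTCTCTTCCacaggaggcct
Rps6: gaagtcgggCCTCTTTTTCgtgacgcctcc
Rps27: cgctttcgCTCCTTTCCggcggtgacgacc
Rpl14: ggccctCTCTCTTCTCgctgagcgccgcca
Rpl39: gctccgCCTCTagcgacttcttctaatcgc
Rps25: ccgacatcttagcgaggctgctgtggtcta
Rpl7l1: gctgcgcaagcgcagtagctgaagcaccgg
Their places are chr11:114668570-114668599, plus strand for *Rpl38*; chr7:109519185-109519214, plus strand for *Rpl27a*; chr2:39005112-39005141, minus strand for *Rpl35*; and chr17:33955646-33955675, minus strand for *Rps18*. *Rps6* is at chr4:86857348-86857377, minus strand, and *Rps27* at chr3:90213629-90213658, minus strand. *Rpl14* is at chr9:120571507-120571536, plus strand, and *Rpl39* at chrX:37085203-37085232, minus strand. *Rps25* is at chr9:44407704-44407733, plus strand, and *Rpl7l1* at chr17:46782637-46782666, minus strand. Of the genes outside the band, *Rps6*, *Rps27*, *Rpl14* and *Rpl39* have a C within 5 bases of the start that is followed by at least 4 pyrimidines. In *Rpl14* the whole run begins further upstream. *Rps25* and *Rpl7l1* have no such C.

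The share of promoters with 2 further motifs was also counted. CCGGAAG, the core bound by ETS factors such as GABP, was present on either strand in 39.6% of cytosolic and 34.2% of mitochondrial promoters, and in 8.86% of all promoters. AAGATGG, the core of the YY1 motif, was present on either strand in 16.7% of cytosolic and 17.8% of mitochondrial promoters, and in 6.34% of all. The motifs were searched apart, so a CCGGAAG that runs on into AAGATGG counted for both. TATAAA between 40 and 20 bases before the start was found in 1 of 48 cytosolic promoters, 0 of 73 mitochondrial and 1.99% of all. These matches describe the sequences and are no measure of binding in these cells.

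Mitochondrial ribosomal protein genes were centred close to equal signal and spread more widely. The median Log2 ratio of the 75 expressed genes was -0.05 (SD over genes 0.31, 25th to 75th percentile -0.21 to 0.11, range -0.82 to 1.05). In CD47 KO cells 29 were higher and 46 lower, so that 38.7% were higher, against 50.3% of all expressed genes. Lower values made up a larger share of the small than of the large subunit, a difference that was not tested. Of the 29 small subunit genes, 7 were higher and 22 lower (24.1% higher, median -0.09), while the 46 large subunit genes were 22 higher and 24 lower (median -0.01).

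Both small subunit genes of the bright class were higher, and in the other classes most were lower. With mean signals of 1000 to 5000, 2 of 15 were higher (median -0.07), and below 1000, 3 of 12 (median -0.19). The other expressed genes of these classes were higher in 54.6% and 46.4% of cases, with medians of 0.03 and -0.05. The large subunit genes had 10 of 23 and 9 of 18 higher, with medians of -0.01 in both classes. When genes were placed by structure and not by symbol, which moves *Mrps30* and *Mrps18a* to the large subunit and leaves out *Mrps36*, 7 of 26 small subunit genes were higher (median -0.08). This alternative was chosen after seeing the data.

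**Figure D3:**
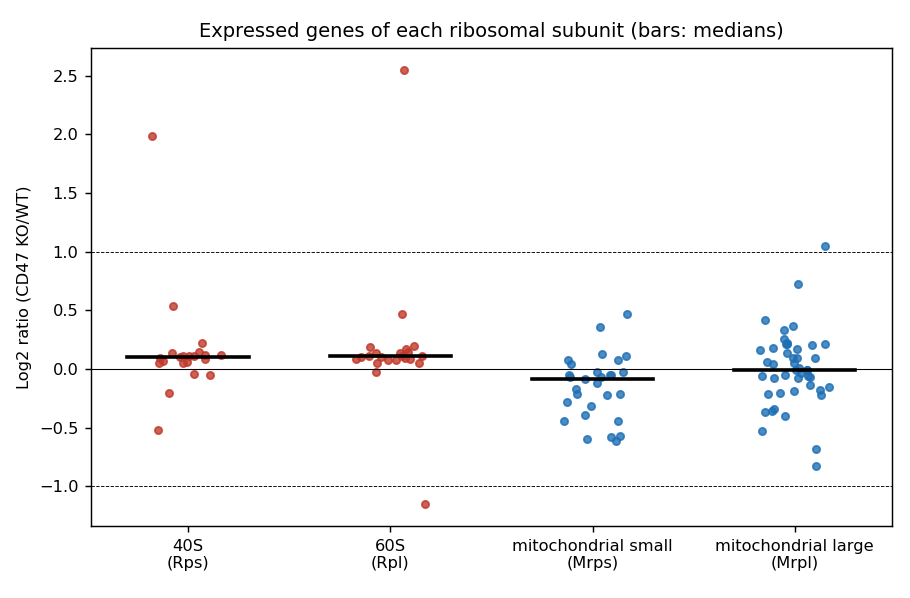
Each point is the Log2 ratio (CD47 KO/WT) of 1 expressed gene (y axis), by subunit (x axis, with 21, 22, 29 and 46 genes from left to right); black bars are medians and dashed lines mark 2-fold. The 40S and 60S medians are 0.10 and 0.11, the mitochondrial small and large subunit medians -0.09 and -0.01.

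The lowest small subunit genes differed by less than 2-fold. *Mrps27*, a pentatricopeptide repeat protein, read 151 in CD47 KO and 231 in WT cells (-0.62). *Mrps16*, mutated in a human disorder of mitochondrial translation, read 1314 in CD47 KO and 1986 in WT (-0.60). *Mrps35* read 568 in CD47 KO and 848 in WT (-0.58), and *Mrps26* read 756 in CD47 KO and 1124 in WT (-0.57). Each was read by 1 expressed probe set. *Mrps15*, a counterpart of a bacterial protein, was read by 2 expressed probe sets, at -0.44 and -0.42, with 492 in CD47 KO and 667 in WT on the brighter one.

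Against these stood 2 small subunit genes with higher signals. *Mrps18b*, one of the *Mrps18* variants, read 1872 in CD47 KO and 1350 in WT (0.47), and *Mrps11* read 478 in CD47 KO and 373 in WT (0.36). *Mrps18c*, another variant and the brightest small subunit gene, read 7321 in CD47 KO and 6921 in WT (0.08), and *Mrps18a* read 990 in CD47 KO and 1007 in WT (-0.03). The 3 variants sit at different places of the mitochondrial ribosome. Each was read by 1 probe set, and probe sets of the same mitochondrial gene differed with an SD of 0.68. Whether the variants differ was not tested.

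The large subunit held both extremes of the mitochondrial set. *Mrpl40*, on chromosome 16, was the single gene past 2-fold, with 702 in CD47 KO and 339 in WT cells (1.05). It was just past the limit and had 1 expressed probe set. *Mrpl19* read 511 in CD47 KO and 309 in WT (0.73), but its 3 expressed probe sets were at 1.40, 0.73 and -0.53. *Mrpl28* read 798 in CD47 KO and 597 in WT (0.42), with a second probe set at 0.17. *Mrpl9* read 1479 in CD47 KO and 1145 in WT (0.37), and its 3 probe sets were all higher, at 0.18 to 1.11.

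At the low end, *Mrpl10*, which carries the stalk protein Mrpl12 on the large subunit, read 447 in CD47 KO and 792 in WT (-0.82), while *Mrpl12* read 1114 in CD47 KO and 1071 in WT (0.06). *Mrpl33* read 4095 in CD47 KO and 6575 in WT (-0.68). It had the largest difference of any of the 41 ribosomal genes of both kinds with a mean signal of at least 5000, since the next largest was 0.22. It had 1 expressed probe set. *Mrpl4* read 960 in CD47 KO and 1383 in WT (-0.53).

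**Figure D4:**
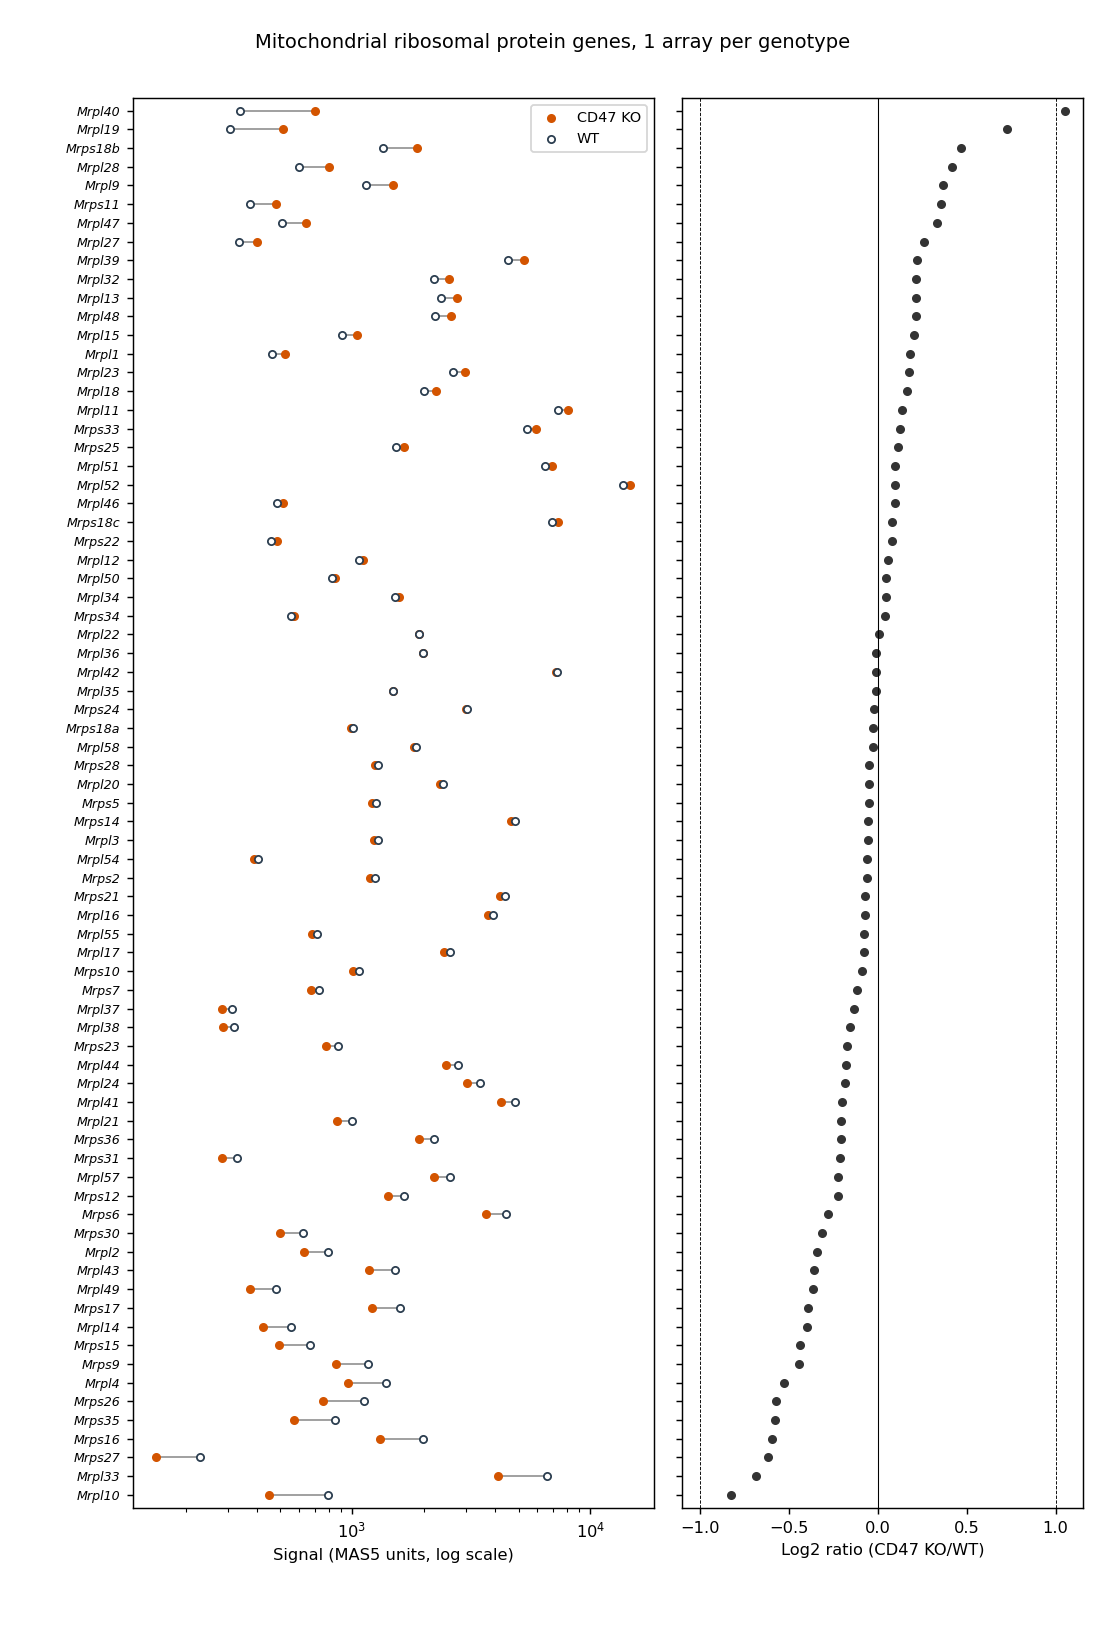
The left panel gives the MAS5 signal (log axis) of the 75 expressed mitochondrial ribosomal protein genes in CD47 KO (filled) and WT cells (open), ordered by Log2 ratio; the right panel gives the Log2 ratio, with dashed lines at 2-fold. Ratios run from 1.05 (*Mrpl40*) to -0.82 (*Mrpl10*), and only *Mrpl40* lies past 2-fold.

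The brightest mitochondrial genes behaved like the cytosolic band. *Mrpl52* read 14741 in CD47 KO and 13777 in WT (0.10), *Mrpl11* 8034 in CD47 KO and 7313 in WT (0.14) and *Mrpl42* 7204 in CD47 KO and 7249 in WT (-0.01). The median of the 7 bright mitochondrial genes was 0.10, with *Mrpl33* the exception. Of the 7, 5 were higher in CD47 KO cells.

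Probe sets of the same mitochondrial gene often disagreed. In 29 genes with at least 2 expressed probe sets the SD within a gene was 0.68, and in 15 of 29 all probe sets had the same sign. In the cytosolic set 14 of 21 had the same sign, with an SD of 0.24. The widest spread was that of *Mrpl52*, where a dim probe set read 57.4 in CD47 KO and 887 in WT (-3.95) and the other 3 lay between 0.05 and 0.22. The 4 probe sets of *Mrps9* lay between -0.44 and 1.34, with 858 in CD47 KO and 1164 in WT on the brightest. Among bright probe sets, of which only 2 genes had several (4 probe sets), the SD within a gene was 0.067.

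The mitochondrial genes had like medians by origin and by link to disease. Those with a counterpart in the bacterial ribosome (45 expressed) and those without (28 expressed) had medians of -0.05 and -0.05, with 17 and 12 genes higher. The 12 listed genes mutated in human mitochondrial disease had a median of -0.05, with 4 higher and 8 lower. Members of the mitochondrial ribosome under other names were 2 higher and 2 lower. *Dap3*, a GTP-binding small subunit protein first known from cell death, read 849 in CD47 KO and 1144 in WT (-0.43), and *Gadd45gip1*, at the large subunit's exit tunnel, read 180 in CD47 KO and 237 in WT (-0.40). *Ptcd3* read 1133 in CD47 KO and 1001 in WT (0.18), and *Chchd1* read 2449 in CD47 KO and 2406 in WT (0.03).

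Genes that build and run the ribosome were set beside it. Of 40 expressed ribosome biogenesis genes, 20 were higher and 20 lower (median 0.04), and 2 were past 2-fold, both lower and both dim. This is 5.00%, against 8.94% of all expressed genes. The CD47 KO signal of *Taf1a* was below the threshold. The 2 genes were *Taf1a*, a subunit of the RNA polymerase I selectivity factor (69.2 in CD47 KO and 173 in WT, -1.32), and *Nop2*, a methyltransferase of ribosomal RNA (170 in CD47 KO and 396 in WT, -1.22). *Fbl*, the methyltransferase fibrillarin, read 3425 in CD47 KO and 2195 in WT (0.64), with a second probe set at 0.19, and *Wdr43*, a nucleolar protein, read 490 in CD47 KO and 309 in WT (0.67). The list as a whole lay at equal signal.

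Of 40 expressed cytosolic translation factors, 28 were higher and 12 lower (median 0.10), a median close to that of the ribosomal proteins. *Eif2b5*, the catalytic subunit of the exchange factor eIF2B, read 358 in CD47 KO and 741 in WT (-1.05) and was the only one past 2-fold. That is 2.50% of the list, against 8.94% of all expressed genes. *Eif3b* read 363 in CD47 KO and 182 in WT (1.00) and was just under 2-fold. *Gspt1*, a release factor, read 2219 in CD47 KO and 1649 in WT (0.43), and *Eif3c* read 3414 in CD47 KO and 4269 in WT (-0.32).

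The regulators of mTORC1 and of TOP mRNAs (20 expressed) had a median of 0.03, with 11 higher and 9 lower. *Deptor*, an inhibitor of mTOR, read 894 in CD47 KO and 407 in WT (1.13) on its brightest probe set, and was the only one past 2-fold. Its 4 other expressed probe sets lay between -0.32 and 0.51, 1 of them of opposite sign (552 in CD47 KO and 690 in WT). *Larp1*, which binds the cap and the TOP motif, read 327 in CD47 KO and 603 in WT (-0.88), and *Rps6kb2*, an S6 kinase, read 290 in CD47 KO and 480 in WT (-0.73). *Tia1*, which also binds TOP mRNAs, read 769 in CD47 KO and 505 in WT (0.61) on its brightest probe set, while its 3 other expressed probe sets were lower in CD47 KO cells (-0.65 to -0.48). The regulators did not lie to one side, and 5.00% of them were past 2-fold, against 8.94% of all expressed genes.

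In mitochondria, 18 expressed translation factors had a median of 0.06 (11 higher, 7 lower), 11 aminoacyl-tRNA synthetases a median of 0.28 (8 higher, 3 lower) and 11 transcription genes a median of 0.08 (6 higher, 5 lower). In each list 1 gene was past 2-fold, which is 5.56%, 9.09% and 9.09% of them, against 8.94% of all expressed genes. *Tsfm*, an elongation factor, read 164 in CD47 KO and 52.4 in WT (1.64), and *Hars2*, the histidyl-tRNA synthetase, read 260 in CD47 KO and 48.0 in WT (2.44). Both WT signals were below the threshold, so both genes entered through the CD47 KO signal alone. At the other end of these lists, *Gtpbp10*, a GTPase of mitochondrial ribosome assembly, read 368 in CD47 KO and 532 in WT (-0.53), and *Mtrf1l*, a release factor, read 306 in CD47 KO and 402 in WT (-0.39). *Ears2* read 249 in CD47 KO and 332 in WT (-0.42), and *Iars2* read 433 in CD47 KO and 557 in WT (-0.36). These encode the glutamyl- and isoleucyl-tRNA synthetases. *Gfm1*, an elongation factor, read 516 in CD47 KO and 370 in WT (0.48), with a dimmer probe set at 2.07 whose WT signal was 53.1. *Lars2*, the leucyl-tRNA synthetase, read 624 in CD47 KO and 397 in WT (0.65), with a dimmer probe set at 0.14. *Ppargc1b*, a coactivator of mitochondrial genes, read 193 in CD47 KO and 431 in WT (-1.16). *Gabpb1*, a subunit of GABP, read 488 in CD47 KO and 765 in WT (-0.65) on its brightest probe set. Its other expressed probe set was of opposite sign, with 372 in CD47 KO and 276 in WT (0.43). *Tfam*, which packs mitochondrial DNA and starts its transcription, read 841 in CD47 KO and 589 in WT (0.51). *Polrmt*, the mitochondrial RNA polymerase, read 459 in CD47 KO and 249 in WT (0.88), with a dimmer probe set at 0.10. All 12 had mean signals under 1000.

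The order of the subunits was little affected by processing. Under 10 alternative ways of processing the cytosolic median lay between 0.02 and 0.14 and the mitochondrial small subunit median between -0.12 and -0.05, so the small subunit was below the cytosolic genes under each. The mitochondrial large subunit median changed sign under centring (0.03).

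**Figure D5:**
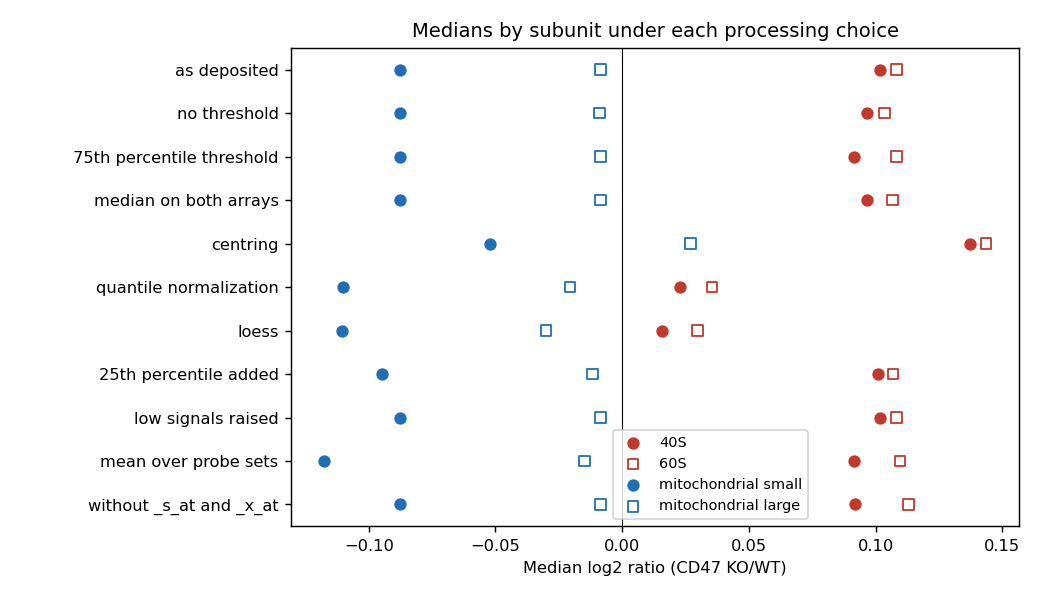
Median Log2 ratio (CD47 KO/WT, x axis) of the expressed genes of each subunit under the values as deposited and 10 alternatives (rows): 40S filled red, 60S open red, mitochondrial small filled blue, mitochondrial large open blue. The cytosolic medians shrink to 0.02 to 0.04 under quantile normalization and loess, and the mitochondrial small subunit medians stay between -0.12 and -0.05.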

How the data were processed

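Brain mononuclear cells of CD47 KO and WT mice were compared on 1 array per genotype. The authors computed the deposited signal intensities (1 linear value for each probe set) by the MAS5 algorithm in Expression Console (version not given in the sources used here). After dropping 2% of values at each end, a mean of 500.002 was left on both arrays, so each had been scaled to a common mean. With 2 arrays, precision is limited by their number. Detection calls were not used.

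Gene symbols came from GEO's platform annotation (34945 of 45101 probe sets have exactly 1), and promoters, gene types and coordinates from RefSeq (GRCm38.p6), all 122 genes matching by gene identifier. Log2 ratios used the deposited signals with nothing added. Signals were not replicated, so no test was made and 2-fold was the only limit. The members and gene lists were chosen with earlier results of these data known. The named genes are those past 2-fold, the 6 highest and 6 lowest ratios and the 4 brightest of each ribosome, the 5S RNP, paralogs and their parents, the 3 widest spreads between probe sets, and the 2 largest changes each way of each related list; the choice of other named members and of the brightness limits of 1000 and 5000 was made after the values had been seen. Marker lists of 13 cell types were read as well. Their other medians were 0.04 (neuron), 0.02 (oligodendrocyte), -0.37 (endothelial), -0.41 (mural), -0.34 (choroid plexus), 0.49 (T cell), -0.34 (B cell), -0.22 (neutrophil) and 0.42 (erythroid, 1 gene).

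Alternatives changed the threshold (none, 75th percentile, median on both arrays), the scaling (centring, quantile, loess with a fraction of 0.4), low signals (25th percentile added, or raised to it) and the probe set (mean, or without _s_at and _x_at types). The scripts were tested on simulated arrays. Python 3.11.15, numpy 2.4.6, pandas 2.3.3, statsmodels 0.14.6 and matplotlib 3.10.9 were used.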

Additional observations from a re-analysis of the deposited data

How the results depend on the processing

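No paired analysis was possible because each genotype has 1 array. The arrays have no replicates, detection calls were not used, and dim probe sets limit single genes. Under quantile normalization the medians were 0.0293 (cytosolic), 0.0229 (40S) and 0.0355 (60S), and under loess 0.0236 (cytosolic), 0.0156 (40S) and 0.0297 (60S). Centring turned the mitochondrial large subunit median to 0.0270, against -0.01 as deposited. The cause of these shifts was not tested. The count of cytosolic genes past 2-fold was 1 with the 75th percentile threshold, 1 with the median on both arrays and 1 with shared probe sets included, against 3. The mitochondrial count was 2 with no threshold, 0 with the 25th percentile added and 2 without _s_at and _x_at probe sets, against 1. With shared probe sets included, an alternative chosen after seeing the data, 69 of 72 cytosolic genes were higher. These settings differ in which probe sets are let in or in how dim signals are weighted. Of single genes, *Rpl39* ranged from 1.74 to 2.93, *Rps4l* from 1.48 to 2.21, *Rpl14* from -1.15 to -1.09 and *Mrpl40* from 0.95 to 1.09. Taking the mean over probe sets gave -0.90 for *Mrpl52* and 0.55 for *Rps6*, and leaving out _s_at and _x_at probe sets gave -0.53 for *Mrpl19*, 1.11 for *Mrpl9* and 0.21 for *Rps24*.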
